A study of Homo sapiens with 6 samples.

Results

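Long intergenic noncoding RNAs with a detectable array value were examined in RWPE-1 cells that did or did not overexpress the miR-183 family. Of 14884 genes with 1 annotated symbol, 459 had a symbol that begins with LINC, the systematic name for a long noncoding RNA gene that lies between protein-coding genes. The genes kept were those whose mean log2 array value was 5 or more over the RWPE1-183FC arrays or over the RWPE1-CTRL arrays, using for each symbol the transcript cluster with the highest mean over all 6 arrays. This left 52 LINC genes, of which 49 reached the minimum in both groups, 0 in RWPE1-183FC cells alone and 3 in RWPE1-CTRL cells alone. RefSeq gives the biotype lncRNA for all of them, although in its annotation 10 of the 52 overlap a protein-coding gene. The genes were thus selected on the group means compared below, and the count of genes above the minimum in each group is a description. Just inside the minimum lay LINC01116, with means of 4.97 in RWPE1-183FC cells and 5.01 in RWPE1-CTRL cells, and LINC01124, with 4.996 and 5.013 in the same order. Just outside it lay LINC02139, with 4.96 in RWPE1-183FC cells and 4.93 in RWPE1-CTRL cells, and LINC00701, with 4.81 and 4.96 in the same order.

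RWPE-1 is an established benign human prostate epithelial cell line. RWPE1-183FC cells carried the whole genomic miR-183 cluster, with its 3 miRs, in the lentiviral vector CD511B-1, and RWPE1-CTRL cells carried the same vector with a scrambled RNA. Both lines bore the vector's GFP tracer and were sorted on it as polyclonal populations, and each was measured on 3 arrays of biological replicates grown in KSFM medium. Values are log2 intensities after RMA, which puts the arrays on a common scale and gives 1 value for each transcript cluster, so that a difference of 1 is a doubling of signal. Over genes the 6 arrays correlated at 0.974 to 0.988 with one another, and their medians over all clusters were 3.82 to 3.86. The basal keratins KRT5 and KRT14 had means of 9.41 and 9.38 in RWPE1-183FC cells, against 9.61 and 9.47 in RWPE1-CTRL cells, and the prostate secretory and lineage markers KLK3 and HOXB13 had 3.85 and 4.05 in RWPE1-183FC cells, against 3.93 and 4.05 in RWPE1-CTRL cells. The keratins of the luminal list were not all dim, with KRT18 at 10.51 in RWPE1-183FC cells and 10.49 in RWPE1-CTRL cells, and KRT8 at 6.04 and 5.76 in the same order. Among the 6 measured basal markers KRT15 was called higher in RWPE1-183FC cells, at 5.46 against 4.50 in RWPE1-CTRL cells, and among the 8 measured luminal markers KRT19 was called lower, at 5.50 against 6.61. Of the 3 measured fibroblast markers, DCN and LUM were at or under 2.81 in both groups' means, and THY1 averaged 4.91 in RWPE1-183FC cells and 5.06 in RWPE1-CTRL cells, with groups that did not overlap. The part of basal, luminal or fibroblast marker levels in the LINC values was not tested.

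Long noncoding RNAs are mostly transcribed by RNA polymerase II, spliced and polyadenylated like mRNAs, but they are not translated into a known protein. Some act in the nucleus on chromatin or on neighbouring genes, some bind proteins, and some carry sites for microRNAs in the cytoplasm. A miR pairs with its target RNA chiefly through its seed, bases 2 to 8 from the 5′ end, and pairing usually lowers the amount of the target. The 3 overexpressed miRs are shown because their seeds are what a target RNA would have to match. The sequences are RefSeq's mature forms (GRCh38.p14, minus strand of chromosome 7), with the seed in capitals.
hsa-miR-183-5p: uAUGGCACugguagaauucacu
hsa-miR-96-5p: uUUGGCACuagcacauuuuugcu
hsa-miR-182-5p: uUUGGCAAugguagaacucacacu
The 3 seeds are all different, AUGGCAC for miR-183-5p, UUGGCAC for miR-96-5p and UUGGCAA for miR-182-5p, and share the run UGGCA. On the arrays the MIR96 feature was at 5.55 in RWPE1-183FC cells, against 2.35 in RWPE1-CTRL cells, and the MIR183 feature was at 4.34 in RWPE1-183FC cells, against 2.54 in RWPE1-CTRL cells; both were called higher. The MIR182 feature averaged 3.27 in RWPE1-183FC cells and 2.94 in RWPE1-CTRL cells, and its groups overlapped. Matches to these seeds within the LINC RNAs were not analysed here, since no transcript sequences were at hand.

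LINC00707 was the one expressed LINC gene that changed by the study's criteria. LINC00707, on chromosome 10, has been described as a binding partner of the RNA-stabilising protein HuR in cancer cells. Its log2 values were 6.94, 6.12 and 7.20 in RWPE1-183FC cells, against 7.55, 7.55 and 8.41 in RWPE1-CTRL cells. Every RWPE1-183FC array lay below every RWPE1-CTRL array, with a gap of 0.35 between the closest arrays, and RWPE1-183FC replicate 2 was the lowest and RWPE1-CTRL replicate 3 the highest. The means were 6.75 ± 0.57 in RWPE1-183FC cells and 7.84 ± 0.49 in RWPE1-CTRL cells (SD, n = 3 each). The log2 difference was -1.08 ± 0.23 (moderated SE in limma), so that the signal in RWPE1-183FC cells was 47.2% of that in RWPE1-CTRL cells. This SE is drawn by limma towards the spread of all fitted genes, so it is not that of this gene's arrays alone. In bulk RNA, fewer cells that express a gene and less of its RNA per cell cannot be told apart. The fall was the 10th largest among 14884 genes, and the change was the largest in size among the 459 LINC genes.

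The call of LINC00707 was not made under every setting. With genes left out whose median or variance fell in the lowest 20% of all genes, limma with Benjamini-Hochberg adjustment gave LINC00707 an adjusted p of 0.0020. Without that filter the same difference had a standard error of 0.31, a 95% interval of -1.77 to -0.40, an unadjusted limma p of 0.0056 and a Benjamini-Hochberg adjusted p of 0.63. With the replicate number as a block it was called both with the filter, at an adjusted p of 0.0012 in limma, and without it, at 0.053. It was not called with the filter applied over all transcript clusters, named or not, at an adjusted p of 0.44 in limma. It was also not called when RWPE1-CTRL replicate 3 was left out, with a difference of -0.80 and an adjusted p of 0.21 in limma. The two-sided exact permutation p was 0.1, the smallest that 3 arrays against 3 allow.

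Of the 50 expressed LINC genes that passed the filter, 1 was called, at an FDR under 0.2 and a fold change over 1.5, where 0.939% of all 9583 tested genes were called and 0.438% were called lower. The remaining 2 LINC genes, LINC00933 and LINC00938, were removed as flat. LINC00933 had a mean of 8.62 in RWPE1-183FC cells and 8.70 in RWPE1-CTRL cells, and LINC00938 had 6.51 in RWPE1-183FC cells and 6.55 in RWPE1-CTRL cells. With the replicate number as a block, 162 of the 9583 genes were called (1.69%), and LINC00707 was still the one expressed LINC gene among them. Without the filter 0 of 52 were called in limma, where 0.242% of all genes were, and 5 had an unadjusted p under 0.05, where 4.78% of all genes did. Outside LINC00707, no expressed LINC gene differed by more than 0.45 on the log2 scale. The 95% intervals of these 51 differences, from limma without the filter, had a median half-width of 0.39, and 25 of them lay wholly within a 1.5-fold change in either direction. For the rest, the interval includes a change beyond 1.5-fold.

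**Figure D1:**
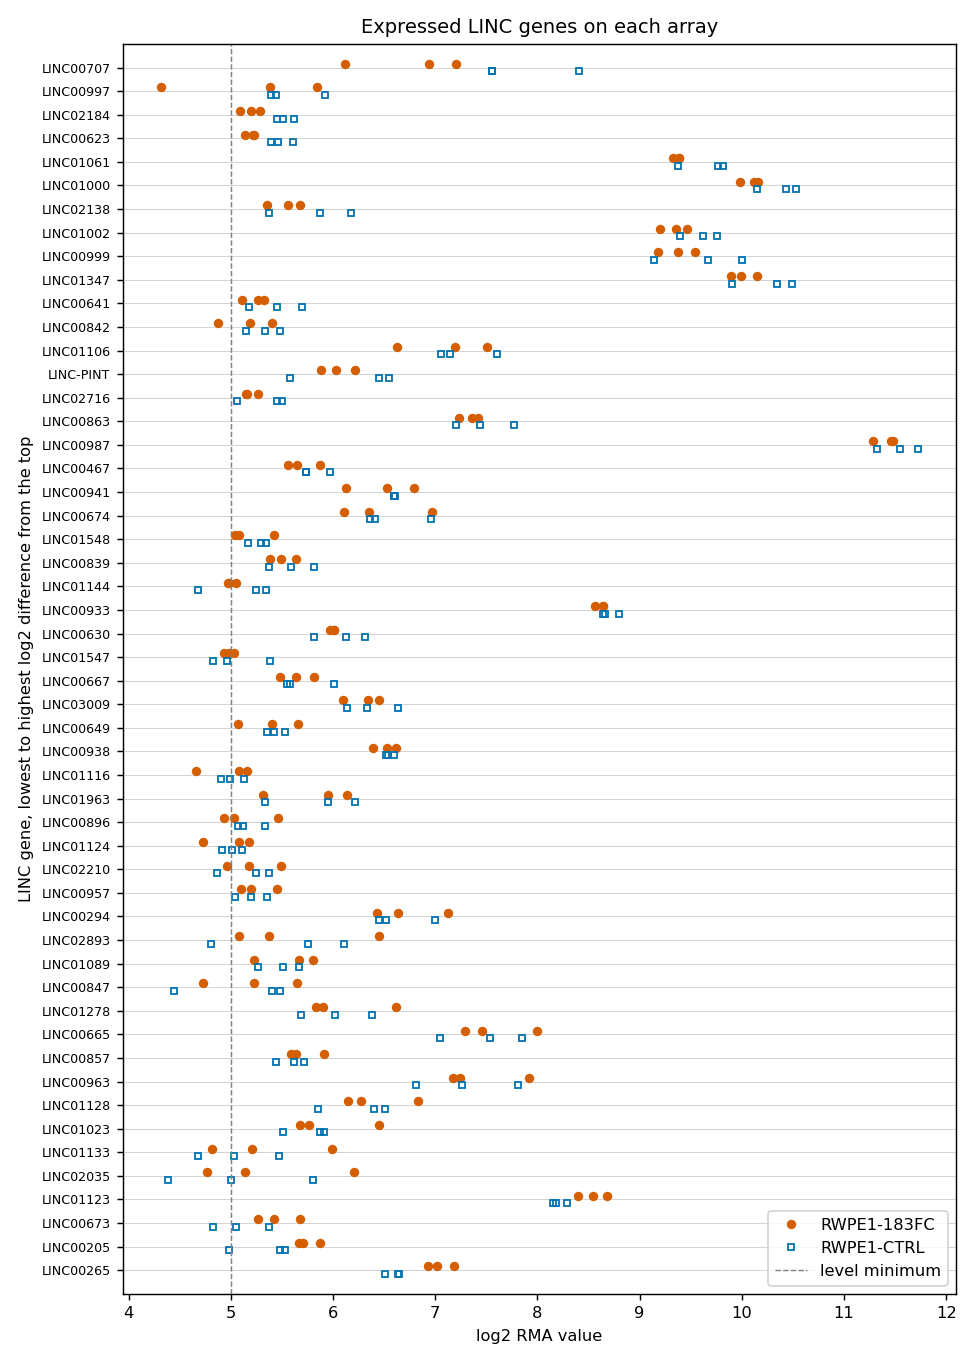
Log2 RMA values of the 52 expressed LINC genes on each array, with RWPE1-183FC arrays as filled circles above RWPE1-CTRL arrays as open squares in each row, ordered by their log2 difference. LINC00707 at the top has the widest separation, and in most other rows the groups overlap.

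**Figure D2:**
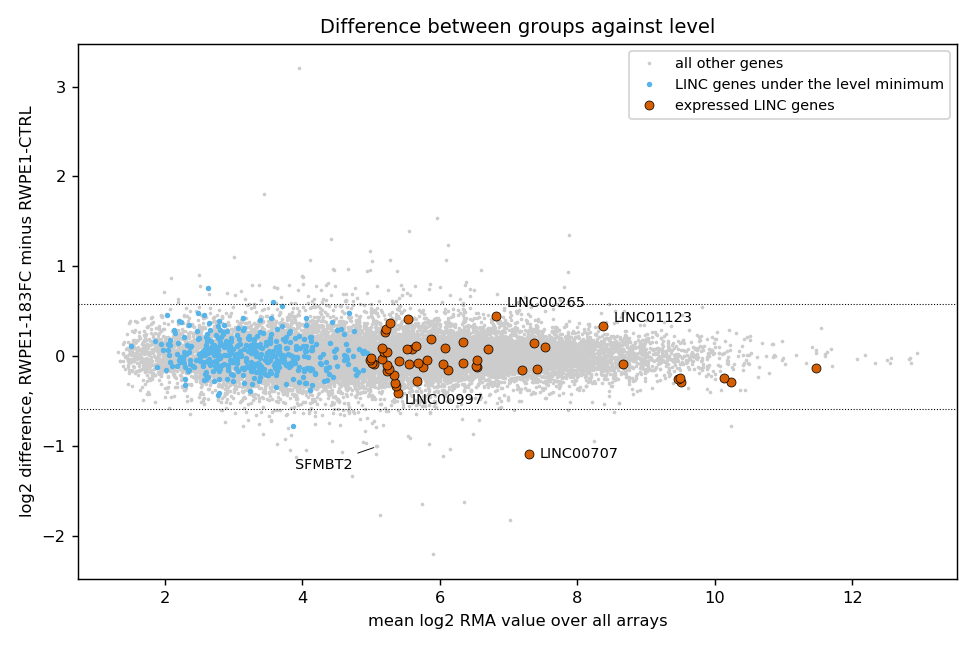
Log2 difference between groups (RWPE1-183FC minus RWPE1-CTRL) against the mean log2 RMA value over all arrays, for 14884 genes. Dotted lines mark a 1.5-fold change, and LINC00707, at -1.08, is the one expressed LINC gene (orange) beyond them.

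Within RefSeq's annotation of GRCh38.p14, SFMBT2 is the nearest protein-coding gene on the side of higher coordinates from LINC00707, 316 kb away. SFMBT2 encodes an MBT-domain protein that acts in transcriptional repression. Its log2 values were 4.54, 4.63 and 4.60 in RWPE1-183FC cells, against 5.84, 5.41 and 5.53 in RWPE1-CTRL cells. The 3 RWPE1-183FC arrays lay close together and well below the RWPE1-CTRL arrays. The difference was -1.001 ± 0.22 (moderated SE in limma), with a Benjamini-Hochberg adjusted p of 0.0036 in limma. SFMBT2 was also called in limma without the filter, at an adjusted p of 0.072. Leaving out RWPE1-CTRL replicate 1 ended this call in limma, with a difference of -0.88 and an adjusted p of 0.21.

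The other measured genes within 1.5 Mb of LINC00707 were not called. PRKCQ-AS1, the nearest measured gene on the other side, averaged 3.81 in RWPE1-183FC cells and 4.09 in RWPE1-CTRL cells, and its groups overlapped. GATA3, a transcription factor of epithelial and T cell lineages that lies beyond SFMBT2, had values of 6.21, 5.72 and 6.10 in RWPE1-183FC cells, against 5.40, 5.52 and 5.67 in RWPE1-CTRL cells. Those groups did not overlap, but the difference of 0.48 had an adjusted p of 0.90 in limma. GDI2, a regulator of Rab GTPases, averaged 8.73 in RWPE1-183FC cells and 9.11 in RWPE1-CTRL cells, again with no overlap and with an adjusted p of 0.999 in limma. CALML3, a calmodulin-like gene of epithelial cells, averaged 7.56 in RWPE1-183FC cells and 6.91 in RWPE1-CTRL cells. Its groups overlapped and its adjusted p in limma was 0.37, and with the replicate block it was called at 0.067. In the order of measured genes the 2 called genes were thus next to each other, though 316 kb apart. Genes of smaller change in both directions lay around them.

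**Figure D3:**
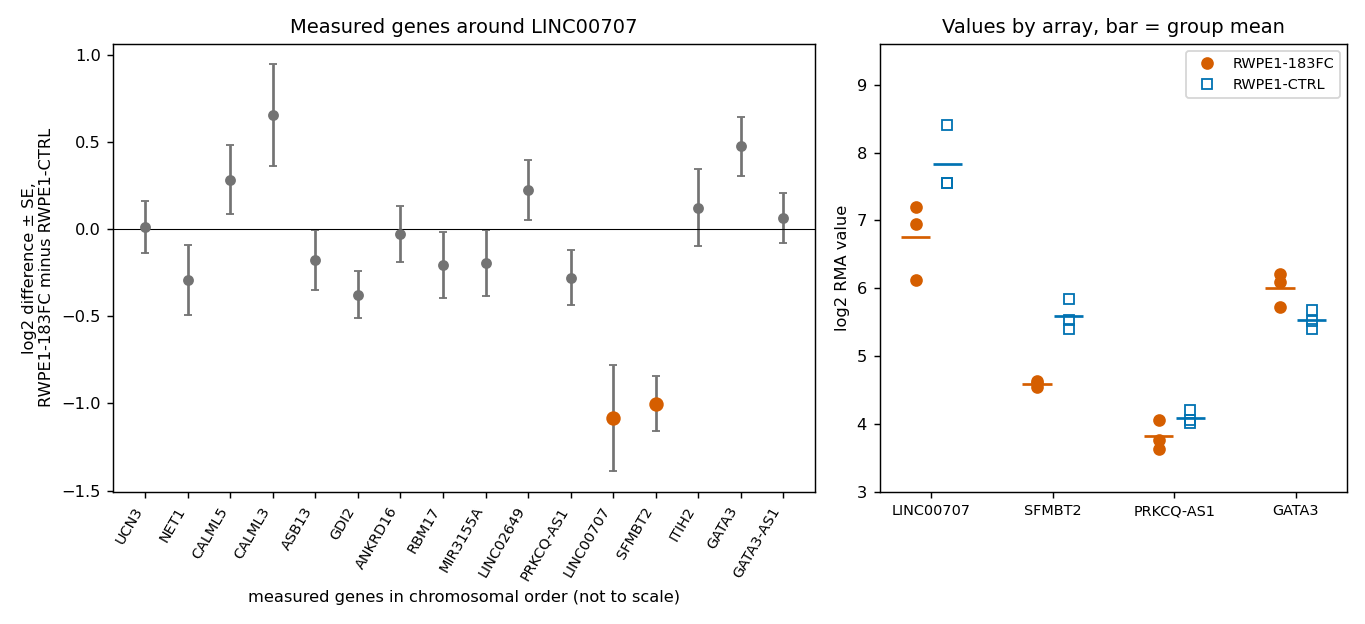
Left, log2 difference (RWPE1-183FC minus RWPE1-CTRL) with its SE in limma without the filter, for measured genes within 1.5 Mb of LINC00707 in chromosomal order. Right, log2 RMA values on each array for 4 of them, with bars at the group means, where LINC00707 and SFMBT2 are lower in every RWPE1-183FC array.

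The same reading was made for the nearest measured protein-coding gene on each side of all 52 expressed LINC genes. These were 98 different genes, of which 69 passed the filter and 1, SFMBT2, was called, against 0.939% of all tested genes. Of the 98, 10 had groups that did not overlap (10.2%), where 9.73% of all genes did. Coding genes that overlap a LINC gene, found for 10 of the 52, were not counted as neighbours. Where the nearest coding gene was not measured, the next measured one was used, so many of these neighbours are not adjacent genes. For LINC00707 on the side of lower coordinates this was RBM17, 662 kb away. The farthest was GPR89A, 24652 kb from LINC00623. The closest neighbour lay within 100 kb for 37 of the 52. Across the 52 LINC genes, the log2 difference of the gene and that of its closest neighbour had a Pearson correlation of 0.45, which was 0.16 without LINC00707. Its pair with SFMBT2 thus carried most of that correlation. All pairs share the same 6 arrays.

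Besides LINC00707, 5 expressed LINC genes had groups that did not overlap, which makes 6 of 52, or 11.5%, beside 9.73% of all genes. Of the 6, 3 were lower in RWPE1-183FC cells, where 4.57% of all genes were lower with no overlap, and 3 were higher, where 5.16% were. None of the 5 was called. LINC00265, on chromosome 7, had the largest increase, with log2 values of 7.02, 6.93 and 7.19 in RWPE1-183FC cells, against 6.63, 6.65 and 6.51 in RWPE1-CTRL cells. Each RWPE1-183FC array was above all RWPE1-CTRL arrays, by a factor of 1.37 in the means, and limma gave a difference of 0.45 with a Benjamini-Hochberg adjusted p of 0.98. A second transcript cluster of LINC00265, at 6.64 in RWPE1-183FC cells and 6.58 in RWPE1-CTRL cells, differed by 0.06, and the third, dim cluster differed by -0.26. The increase was therefore seen chiefly in 1 of the 3 clusters that carry this symbol, and the mean over them differed by 0.082.

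LINC00205, on chromosome 21, had log2 values of 5.67, 5.87 and 5.70 in RWPE1-183FC cells, against 5.53, 5.49 and 4.98 in RWPE1-CTRL cells. RWPE1-CTRL replicate 3 was the low array there, and the difference was 0.41. LINC01123, on chromosome 2, had 8.40, 8.55 and 8.68 in RWPE1-183FC cells, against 8.29, 8.16 and 8.18 in RWPE1-CTRL cells, a difference of 0.33. In the lower direction, LINC02184, on chromosome 16, had 5.28, 5.20 and 5.09 in RWPE1-183FC cells, against 5.45, 5.51 and 5.61 in RWPE1-CTRL cells, a difference of -0.33. Its arrays were tight in both groups, with SDs of 0.094 in RWPE1-183FC cells and 0.083 in RWPE1-CTRL cells. Its upstream sequence has a copy at another lncRNA gene, given below, and whether its probes read 1 locus or several was not tested. LINC00623, on chromosome 1, had 5.13, 5.23 and 5.22 in RWPE1-183FC cells, against 5.46, 5.61 and 5.40 in RWPE1-CTRL cells, a difference of -0.30. The adjusted p in limma was 0.999 for each of these 4.

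With no test made of the set, 34 of the 52 expressed LINC genes had a lower mean in RWPE1-183FC cells (65.4%), where 48% of all genes did. The 34 include the 3 genes above the minimum in RWPE1-CTRL cells alone, which are lower by the way they were selected. Of the 49 above it in both groups, 31 had a lower mean (63.3%). Among all genes with a group mean of 5 or more, 47.4% did. The median difference was -0.08 over the 52 and 0.01 over all genes. The count of 34 moved with single arrays, from 29 to 43 of 52 when each array was left out in turn. Among the 407 LINC genes below the minimum, 184 had a lower mean (45.2%). Between arrays of the same replicate number, 12 of the 52 were lower in all 3 pairs, where 13.4% of all genes were, and 6 were higher in all 3 pairs, where 15.5% of all genes were.

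One group of LINC genes with high array values varied alike. LINC01000, LINC01061, LINC01002, LINC01347 and LINC00999 lie on chromosomes 7, 4, 19, 1 and 10, and all but LINC01002 are represented by 3 to 7 transcript clusters. LINC01000 had log2 values of 10.16, 10.12 and 9.98 in RWPE1-183FC cells, against 10.43, 10.53 and 10.15 in RWPE1-CTRL cells. LINC01061 had 9.39, 9.39 and 9.33 in RWPE1-183FC cells, against 9.82, 9.77 and 9.38 in RWPE1-CTRL cells. For both, RWPE1-CTRL replicates 1 and 2 were high and RWPE1-CTRL replicate 3 was close to the RWPE1-183FC arrays. The same array was the lowest RWPE1-CTRL array of LINC01002, LINC01347 and LINC00999. In the brightest cluster of each, differences of the 5 genes were -0.24 to -0.29, the groups overlapped, and none was called. Their other clusters differed by -0.51, in 1 cluster of LINC01347, to 0.074, in 1 of LINC01061. Most of these other clusters had groups that overlapped. The exceptions were a cluster of LINC01347 (4.91 in RWPE1-183FC cells, 5.42 in RWPE1-CTRL cells), of LINC00999 (8.13 and 8.36) and of LINC01061 (7.05 and 7.26). In the last the closest arrays were at 7.147 and 7.149. Groups did not overlap for 9.73% of all genes, and the share over all clusters was not computed. Over the 6 arrays the values of the 5 genes correlated with one another at Pearson r of 0.70 to 0.98. The 5 were grouped after their values were seen, so these correlations are a description. Of the 7 clusters of LINC01061, 6 were lower in RWPE1-183FC cells, as were all 6 clusters of LINC01347, all 4 of LINC00999 and 2 of the 3 of LINC01000.

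The upstream sequences of LINC01061 and LINC01002 are shown because these genes, on different chromosomes, start from near-copies of one sequence. Each is RefSeq's window of 300 bases around the gene's start, most of it upstream, on GRCh38.p14, minus strand in both, at chr4:119410611-119410910 and chr19:202160-202459. Capitals mark bases that differ between the pair or have no partner at the ends.
LINC01061: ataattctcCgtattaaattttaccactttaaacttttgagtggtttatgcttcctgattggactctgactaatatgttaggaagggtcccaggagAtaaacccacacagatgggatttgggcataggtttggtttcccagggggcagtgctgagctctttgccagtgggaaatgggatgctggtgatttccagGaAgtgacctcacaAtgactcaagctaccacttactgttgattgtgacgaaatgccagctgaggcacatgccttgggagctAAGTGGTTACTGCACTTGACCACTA
LINC01002: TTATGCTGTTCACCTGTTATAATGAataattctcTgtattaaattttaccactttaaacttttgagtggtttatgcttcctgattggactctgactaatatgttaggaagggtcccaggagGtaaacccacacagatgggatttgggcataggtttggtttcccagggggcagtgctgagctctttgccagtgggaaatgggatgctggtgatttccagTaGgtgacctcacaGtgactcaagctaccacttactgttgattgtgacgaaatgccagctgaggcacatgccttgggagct
Of 275 aligned bases, 270 were identical and 5 differed, an identity of 98.2%. Both windows share over 50% of their runs of 20 bases with the windows of further lncRNA genes, among them LINC01001 on chromosome 11. Whether their probes read 1 locus or several was not tested, so the values of these genes are uncertain as values of single loci. No window was found for LINC01000, LINC01347 and LINC00999, so copies of their upstream sequence could not be looked for.

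A second pair with copied upstream sequence behaved otherwise. LINC01123 and LINC01106 lie on chromosome 2 on opposite strands, plus for LINC01123, at chr2:109986730-109987029, and minus for LINC01106, at chr2:110384487-110384786. Their windows are shown, with the bases that have no partner at the ends in capitals, since they are the same over the whole aligned stretch.
LINC01123: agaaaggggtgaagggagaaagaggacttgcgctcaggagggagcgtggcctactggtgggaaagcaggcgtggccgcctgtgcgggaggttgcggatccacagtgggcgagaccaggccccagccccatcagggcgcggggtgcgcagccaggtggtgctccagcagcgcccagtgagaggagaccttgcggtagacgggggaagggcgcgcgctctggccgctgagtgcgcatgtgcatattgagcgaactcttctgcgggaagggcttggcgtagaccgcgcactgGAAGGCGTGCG
LINC01106: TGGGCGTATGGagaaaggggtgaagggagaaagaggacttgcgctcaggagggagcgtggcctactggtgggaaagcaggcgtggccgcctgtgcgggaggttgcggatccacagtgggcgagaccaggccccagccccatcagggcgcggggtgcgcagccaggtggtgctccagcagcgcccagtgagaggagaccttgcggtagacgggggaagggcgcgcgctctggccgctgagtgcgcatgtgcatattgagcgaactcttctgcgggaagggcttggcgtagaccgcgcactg
All 289 aligned bases of the 300 were identical. LINC01106 had log2 values of 6.63, 7.51 and 7.19 in RWPE1-183FC cells, against 7.15, 7.60 and 7.05 in RWPE1-CTRL cells. Its groups overlapped, unlike those of LINC01123, and replicate 2 was its highest array in both groups. The 2 genes correlated at a Pearson r of -0.04 over the 6 arrays.

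**Figure D4:**
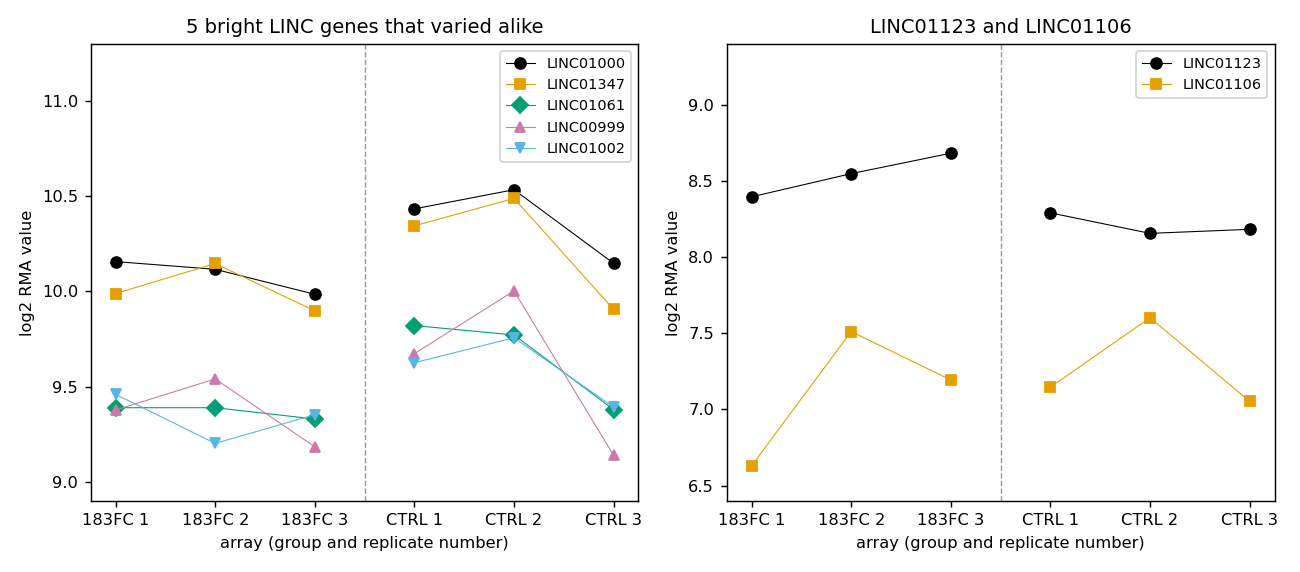
Log2 RMA values on each array for 5 LINC genes that varied alike (left) and for LINC01123 and LINC01106, whose upstream windows are copies (right), with RWPE1-183FC arrays left of the dashed line and RWPE1-CTRL arrays right of it. Lines only join the values of 1 gene within a group; RWPE1-CTRL replicate 3 is the lowest RWPE1-CTRL array for all 5 genes on the left.

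Upstream windows were found for 42 of the 52 expressed LINC genes, and for 8 of them another gene's window shared at least 50% of its runs of 20 bases. The 8 were LINC00863, LINC01002, LINC01061, LINC01106, LINC01123, LINC02184, LINC02210 and LINC03009. For LINC02184 the share was 100%, with the lncRNA gene LOC102724523, also on chromosome 16. The median ratio of observed to expected CpG was 0.63 over the 42, beside 0.26 over 285 LINC genes below the minimum and 0.58 over all 27305 windows. The word TATAAA on either strand was present in 3 of the 42 (7.14%), in 16.1% of the windows of LINC genes below the minimum and in 12.0% of all windows. The expressed LINC genes thus had a higher CpG ratio in these windows than the LINC genes below the minimum. A word match is a description of the letters and not of a binding site.

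LINC00987, on chromosome 12, was named for the highest mean array value of the 52, with 11.28, 11.48 and 11.46 in RWPE1-183FC cells and 11.32, 11.72 and 11.55 in RWPE1-CTRL cells. The groups overlapped, with a difference of -0.12. Its other cluster was dim, at 4.07 in RWPE1-183FC cells and 4.13 in RWPE1-CTRL cells, so that the gene is above the minimum through 1 of its 2 clusters. In all, 15 of the 52 genes had several clusters, and in 4 of these the clusters differed in the sign of the change. Array values also depend on the probes, so their order between genes is not an order of RNA amounts.

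A few genes are described for their known roles and were chosen after their values were seen. LINC-PINT, a p53-induced lncRNA that interacts with the polycomb complex PRC2, had log2 values of 6.03, 5.88 and 6.21 in RWPE1-183FC cells, against 6.45, 5.58 and 6.55 in RWPE1-CTRL cells. LINC00963, first described in prostate cancer cells that grow without androgen, had 7.18, 7.92 and 7.24 in RWPE1-183FC cells, against 7.26, 7.81 and 6.81 in RWPE1-CTRL cells. In both genes the groups overlapped and replicate 2 stood apart, below the other arrays for LINC-PINT and above them for LINC00963. LINC00941, which takes part in the control of keratinocyte differentiation, had 6.53, 6.79 and 6.13 in RWPE1-183FC cells, against 6.60, 6.60 and 6.60 in RWPE1-CTRL cells. Its spread lay almost wholly within the RWPE1-183FC arrays. LINC00673, also known as SLNCR, had 5.68, 5.27 and 5.42 in RWPE1-183FC cells, against 5.38, 4.82 and 5.05 in RWPE1-CTRL cells. It was higher in all 3 pairs of the same replicate number, by 0.30, 0.45 and 0.36, while its groups overlapped by a small margin, and limma with the replicate block gave an adjusted p of 0.45. LINC00997, on chromosome 7, had 4.32, 5.84 and 5.39 in RWPE1-183FC cells, against 5.39, 5.92 and 5.45 in RWPE1-CTRL cells. RWPE1-183FC replicate 1 was far below its other arrays, and without RWPE1-183FC replicate 2 the gene was called in limma, with a difference of -0.73 and an adjusted p of 0.18.

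The spread within groups followed the replicate number in part, chiefly for replicates 2 and 3. Replicate 2 was the highest array in both groups for 21 of the 52 expressed LINC genes (40.4%), where 20.2% of all genes and 25.1% of genes with a group mean of 5 or more showed this. It was the lowest in both for 5 (9.62%), where 18.5% of all genes and 24.0% of genes with a group mean of 5 or more showed this. LINC02035 is the widest example, with 4.77, 6.21 and 5.13 in RWPE1-183FC cells and 4.999, 5.80 and 4.39 in RWPE1-CTRL cells. Over the 52 genes, deviations from the group mean correlated between the arrays of replicate 2 at 0.71, between those of replicate 3 at 0.61 and between those of replicate 1 at 0.28. RWPE1-183FC replicate 1 correlated somewhat more with RWPE1-CTRL replicate 3, at 0.35. The basal keratin KRT14 moved with the same number in the other direction, at 9.69, 8.70 and 9.73 in RWPE1-183FC cells and 9.74, 8.82 and 9.84 in RWPE1-CTRL cells. The part of this shared deviation in the group differences was not tested gene by gene. Without both replicate 2 arrays LINC00707 differed by -0.91, with an adjusted p of 0.031 in limma.

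**Figure D5:**
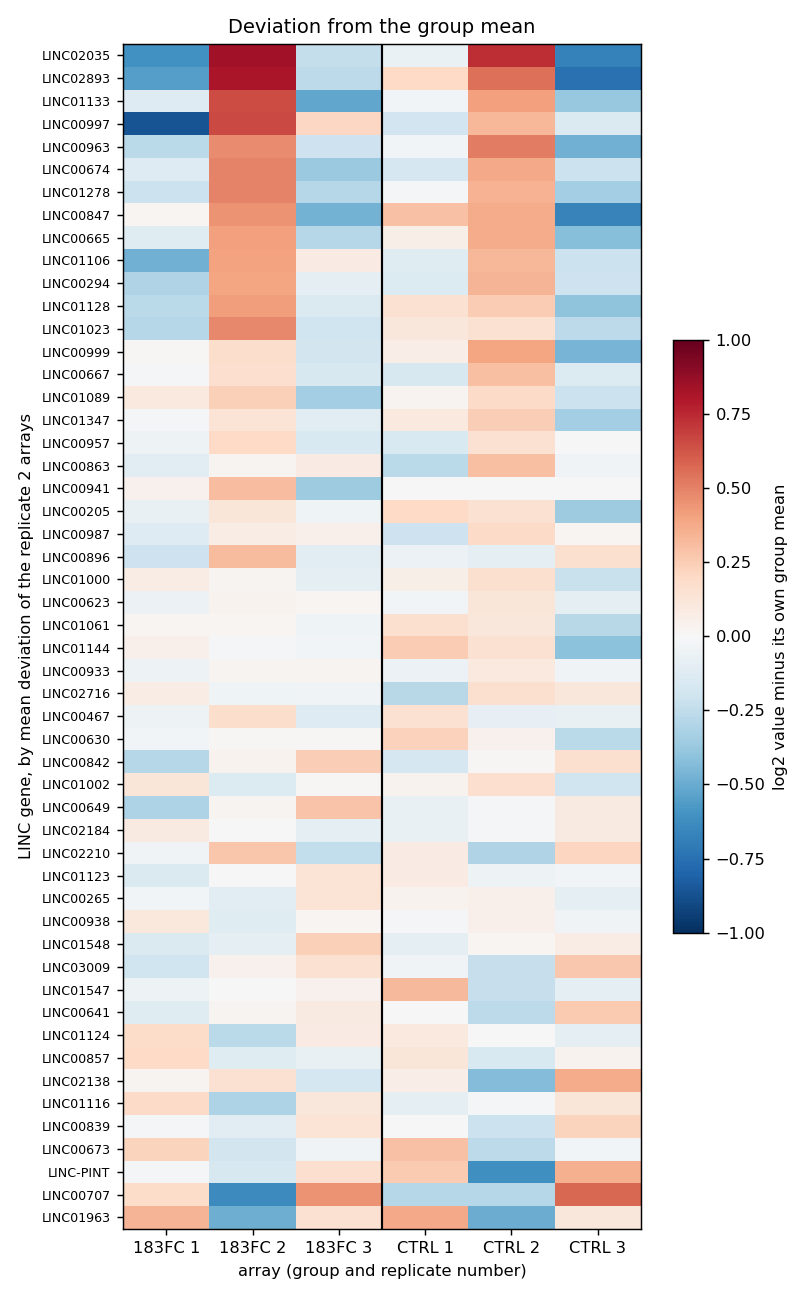
Each array's log2 value minus its own group's mean, for the 52 expressed LINC genes, ordered by the mean deviation of the replicate 2 arrays, with RWPE1-183FC arrays left of the line and RWPE1-CTRL arrays right of it. The upper genes are red in both replicate 2 columns, and LINC01963, LINC00707 and LINC-PINT at the foot are blue in both.

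Genes that make, process or work with long noncoding RNAs were read from lists. No gene was called among 15 measured genes of RNA polymerase II and the Integrator complex, 18 of nuclear RNA turnover, 11 of the polycomb complexes and related partners, and 8 of the miRNA machinery, where 0.939% of all tested genes were called, so that 0 calls in lists of this size is near that share. At an unadjusted p under 0.05 in limma without the filter, 2 of the polycomb genes passed, EZH2 and MTF2, and 0 in each of the other lists, where 4.78% of all genes passed. The largest change among these was in EZH2, the methyltransferase of PRC2, which averaged 6.61 in RWPE1-183FC cells and 7.17 in RWPE1-CTRL cells. The EZH2 groups did not overlap, and the difference of -0.56 had an adjusted p of 0.60 in limma. MTF2, a PRC2 accessory protein, averaged 7.14 in RWPE1-183FC cells and 6.77 in RWPE1-CTRL cells, with an adjusted p of 0.999 in limma. The Integrator subunit INTS6 differed by -0.26, the exosome subunit EXOSC8 by -0.25 and the miRNA effector TNRC6C by 0.27, and none was called.

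Long noncoding RNAs with other kinds of name were read in the same way. Of 30 measured lncRNAs from a list of well known ones, 18 passed the filter and 0 were called, and 1 of the 30 had an unadjusted p under 0.05 in limma without the filter, both near the shares of all genes (0.939% and 4.78%). MALAT1, a nuclear speckle RNA, averaged 9.90 in RWPE1-183FC cells and 10.10 in RWPE1-CTRL cells, and NORAD, which binds Pumilio proteins, averaged 10.98 and 11.07 in the same order. The largest differences were in CRNDE, at 0.37 with overlapping groups, and in MIAT, at -0.33 with groups that did not overlap. Of the 939 other genes with the RefSeq biotype lncRNA, 514 passed the filter and 1, FAM245A, was called lower, at 3.18 in RWPE1-183FC cells against 3.90 in RWPE1-CTRL cells, with an adjusted p in limma of 0.15 with the filter and 0.54 without. Among the 407 LINC genes below the minimum, 130 passed the filter and 1 was called lower, LINC02381, where 0.438% of all tested genes were called lower. The count of 1 in 130 is near that share and that of 1 in 514 is below it, and neither is a result about these genes. Its log2 values were 3.26, 3.50 and 3.66 in RWPE1-183FC cells, against 4.81, 3.71 and 4.21 in RWPE1-CTRL cells, and its adjusted p in limma was 0.10 with the filter and 0.87 without.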

How the data were processed

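Expression of RWPE1-183FC and RWPE1-CTRL cells was measured on 6 Affymetrix arrays, 3 biological replicates per group by the sample labels. The authors deposited log2 values after RMA. For this step the R package oligo is given in the paper, whereas Partek and RMA stand in the submitters' processing notes. The array design is not named uniformly, and the deposited clusters are those of Human Gene 2.0 ST. The files name no genome build, and RefSeq's on GRCh38.p14 was used for neighbours and upstream windows.

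Of 53617 transcript clusters, 16098 carried exactly 1 symbol and were used. The other 37519, with no symbol or with several, were not. Symbols were taken from the platform annotation, and 0 changed through Entrez identifiers. The cluster with the highest mean stood for a symbol, which gave 14884 genes. As in the paper, genes in the lowest 20% by median or by variance were left out. The groups were then fitted with limma (version 3.58.1, lmFit and eBayes, R 4.3.3), and a gene was called at a Benjamini-Hochberg adjusted p under 0.2 with a change of more than 1.5-fold. The prior of this fit had 176 degrees of freedom with the filter and 5.80 without. The number of arrays limits the precision. The SEs and p-values of limma rest on the spread between these replicates, drawn towards that of all fitted genes. Figures were drawn with matplotlib 3.10.9.

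To check whether replicate numbers pair the arrays, each array's deviations from its group mean were correlated over all genes. Same-numbered arrays gave 0.101, 0.511 and 0.290, all above 0.1, so a fit with a replicate block was tried as well. No source used here states such a pairing, which rests on the data alone. RWPE1-183FC replicate 1 correlated more with RWPE1-CTRL replicate 3, at 0.214.

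The genes and lists were chosen with earlier results of these data known. Named genes were LINC00707, called genes, those whose groups did not overlap, the 5 with the highest values, those nearest the minimum, the neighbours of called genes and, in each list, called genes or the 2 with the largest change. Further genes are named for a known role, as removed by the filter, as markers, for copied upstream sequence or as examples of a described pattern, all after their values were seen.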

Additional observations from a re-analysis of the deposited data

How the results depend on the processing

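LINC00707 was lower in RWPE1-183FC cells under every alternative run. It was not called by limma without the filter (-1.08, adjusted p 0.63), with a filter on the median only (-1.08, adjusted p 0.58), over all transcript clusters (-1.08, adjusted p 0.44) or without RWPE1-CTRL replicate 3. Leaving out 1 array at a time gave -1.31 to -0.77. SFMBT2 was lower throughout, at -1.09 to -0.88 with 1 array left out, and was not called without RWPE1-CTRL replicate 1.

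The number of expressed LINC genes called was 0 without the filter, 0 with the median filter and 0 over all clusters, and 0 to 2 with 1 array left out. It was 2 with a minimum of 4 or with none, through LINC02381. Those with a lower mean were 72 of 128 at a minimum of 4, 16 of 23 at 6 and 218 of 459 with none. Calls among neighbours were 2 with array weights and 2 with the replicate block, through NXF3, and 0 to 1 with 1 array left out. The cause of these changes was not tested.

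Of all genes, 90 were called, and 36 without the filter, 37 with the median filter, 192 with array weights, 51 at an FDR under 0.05, and 43 to 152 with 1 array left out. The replicate block gave 162 calls, 89 of them among the 90, and 109 with no filter. With this pairing LINC00707 had an adjusted p of 0.0012 in limma, and 0.053 with no filter, where it was called. For the expressed LINC genes and SFMBT2 the block changed no other call.

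The 2 genes nearest the minimum turned direction while close to 0 and not called. LINC01116 was at 0.074 with array weights, 0.11 without both replicate 2 arrays and -0.14 to 0.12 with 1 array left out, above 0 without RWPE1-183FC replicate 2 (0.12) or RWPE1-CTRL replicate 3 (0.019). LINC01124 was at 0.020 with array weights, 0.12 without both replicate 2 arrays and -0.11 to 0.12 with 1 array left out, above 0 without RWPE1-183FC replicate 2 (0.12) or RWPE1-CTRL replicate 1 (0.032). Without RWPE1-183FC replicate 2 the filter removed both, and their differences there have no test. A change under 1.5-fold could not be called by the criteria themselves, and 3 arrays per group limit what can be detected.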
